A study of Mus musculus with 479 samples.

Results

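Fatty acid oxidation and its transcriptional regulator PPAR alpha were followed through 34 genes in heart, kidney, liver and lung of mice that carry a changed copy of Dchs1 or of Fat4. The members were chosen by name and function, with earlier results of these data known: enzymes and carriers of mitochondrial and straight-chain peroxisomal fatty acid oxidation, a ketone body enzyme, targets of PPAR alpha and Ppara itself. All 34 were found among the 24475 gene identifiers of the deposited tables. They were grouped by role as 1 regulator, 3 genes of uptake and activation, 5 of the carnitine shuttle, 7 of the mitochondrial oxidation core, 4 auxiliary enzymes for unsaturated chains, 3 peroxisomal enzymes, 4 acyl-CoA thioesterases, 1 ketone body enzyme, 3 genes of fuel switching and uncoupling and 3 secreted or cell surface targets.

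Fatty acids are taken up by transporters, joined to coenzyme A, passed across the mitochondrial membranes as carnitine esters and shortened in repeated rounds of dehydrogenation, hydration, oxidation and thiolysis. Peroxisomes carry out a parallel pathway for chains that are long or have a carboxyl group at each end. PPAR alpha is a nuclear receptor that binds fatty acids, pairs with a retinoid X receptor on DNA and raises many of these genes in liver, kidney and heart during fasting, when fat replaces glucose as fuel.

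Dchs1 and Fat4 encode very large cadherins that bind each other across neighbouring cells. Heterozygous mice (Het) of a Dchs1 line and of a Fat4 line, made with VelociGene technology on a C57BL/6NTac background, were compared with wild-type littermates (WT) of the same line, and the stated question, from the series' title, was how many samples an RNA-seq comparison needs. Poly(A) RNA was sequenced from 30 libraries in each of the 16 groups of line, tissue and genotype, except 29 in Dchs1 Het liver, for 239 libraries of the Dchs1 and 240 of the Fat4 line. The labels give no age, sex or litter, no treatment, and not which part of either gene was changed, and whether each library stands for its own mouse is not stated. The p-values therefore rest on library-to-library spread, which may be technical. All 239 libraries of the Dchs1 line had at most 0.316 TPM (a level scaled to transcript length and to the sum over all transcripts) of Xist and at least 20.7 TPM of 4 Y-linked genes together, and the 240 of the Fat4 line at most 0.187 and at least 23.3 TPM.

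The gene-assigned reads per library ran from 10720364 to 32282525 with a median of 18978025. In Het libraries of the Dchs1 line Dchs1 lay below the WT median in all 30 libraries of heart, kidney and lung and all 29 of liver. Its mean fell from 14.5 to 6.73 CPM (counts scaled to a library total with TMM correction) in heart and from 17.7 to 7.48 CPM in lung. Fat4 lay below the WT median in all 30 Het libraries of each tissue of its own line and fell from 9.40 to 4.50 CPM in kidney. The defining markers of cardiomyocytes, proximal tubule, hepatocytes and lung epithelium were each present in the tissue of that label, with all 8 of each list at a mean of at least 1 TPM. In WT of the Dchs1 line 7 of the cardiomyocyte markers also reached this in lung, and 7 of the hepatocyte markers in kidney. The mean sums of the 4 lists there were 29450, 47140, 97710 and 151200 TPM in the labelled tissue. The next highest tissue had 368 (lung), 8.81 (lung), 1333 (kidney) and 143 TPM (heart). Some libraries stood apart from the rest of their comparison by their correlation with the others, 9 in Dchs1 lung, 5 in Fat4 liver, 4 in Fat4 heart, 2 in Dchs1 liver and 1 in Fat4 lung, and counts without them are given where they move. In 7 of the 8 comparisons the numbers in the library names form more than 1 run of neighbouring numbers, here called a stretch. A stretch is no labelled batch. It serves for counts repeated in the longest stretch or with the stretch as a covariate.

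Across the wild-type tissues the mean level of a member was highest in liver for 16 and in heart for 12 of the 34 genes of the Dchs1 line, and lowest in lung for 22. This order of means was not counted over all genes. Of the 34 members, the mitochondrial genes Cpt1b, Crat, Acadl, Hadha, Hadhb, Pdk4 and Ucp3 had every heart library of the Dchs1 line above every library of the other tissues, 7 in all, where 3.78% of the 15488 genes compared did so. In the Fat4 line Acadvl joined them for 8 members, beside 3.94% of 15500 genes. Liver libraries lay wholly above the rest for the same 4 members in each line, Fabp1, Acsl1, Decr2 and Fgf21, where 3.89% and 4.78% of all genes did so. No member had kidney wholly above or wholly below the other tissues in either line, beside 3.72% and 0.736% of all genes for Dchs1 and 5.52% and 0.916% for Fat4. Lung lay wholly below the other tissues for 8 members of the Dchs1 line and 9 of the Fat4 line, where 0.555% and 0.981% of all genes did so. The 7 found in each line were Ppara, Acsl1, Cpt2, Acadvl, Acadm, Decr1 and Bdh1. Lung lay wholly above for Ucp2 in the Dchs1 line and for Ucp2 and Cd36 in the Fat4 line, beside 28.5% and 42.9% of all genes. Heart was wholly lowest for 4 members of the Dchs1 line and 6 of the Fat4 line, with 7.81% and 14.1% of all genes. Liver was wholly lowest for 2 and 3, with 11.6% and 13.6%.

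**Figure D1:**
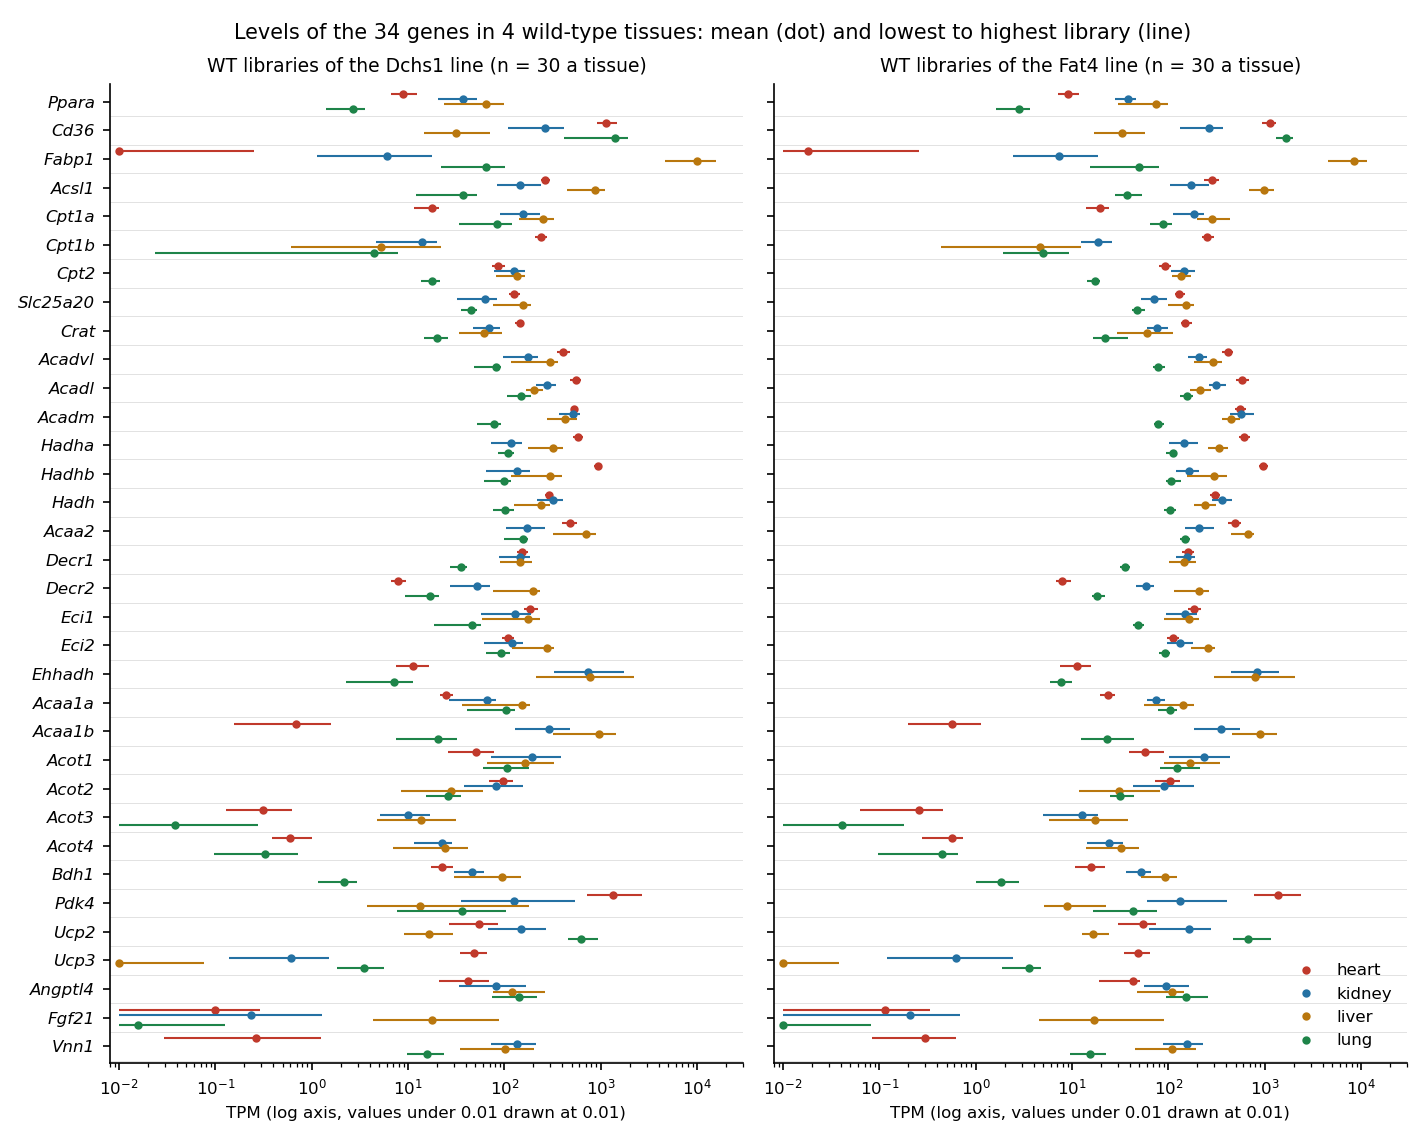
Wild-type levels of the 34 members by tissue and line, as TPM on a log axis, with genes grouped by role. Fabp1 in liver is the highest level (mean 9990 TPM in the Dchs1 line), Pdk4 and the Hadha and Hadhb pair are highest in heart, and Ppara is ordered from liver through kidney and heart to lung.

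Ppara (identifier 19013, chromosome 15, 85734910 to 85806851, GRCm38.p6), the receptor itself, had a mean level of 65.0 ± 16.0 TPM (SD, n = 30) in WT liver of the Dchs1 line, 37.3 ± 6.79 TPM in kidney, 8.80 ± 1.45 TPM in heart and 2.68 ± 0.603 TPM in lung. Liver and kidney libraries overlapped, while heart lay wholly below them and lung wholly below heart. In the Fat4 line the order was the same, with 74.8, 38.0, 8.999 and 2.79 TPM. The receptor was thus 24.3 times higher in liver than in lung in the Dchs1 line and 26.8 times in the Fat4 line.

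Of the uptake genes Cd36 and Fabp1 ranged more widely than the receptor, and Acsl1 did not, at 23.2 times between liver and lung in the Dchs1 line and 26.8 times in the Fat4 line. Levels are those of the Dchs1 line where no line is named. Cd36, a fatty acid transporter of the cell surface, averaged 1393 TPM in lung and 1140 TPM in heart of the Dchs1 line, which overlapped, and 31.5 TPM in liver. Fabp1, a fatty acid binding protein of the cytosol, averaged 9990 ± 2917 TPM in liver, 64.2 TPM in lung and 6.07 TPM in kidney, and was listed at 0 in 29 of 30 heart libraries. Acsl1, which joins long-chain fatty acids to coenzyme A, averaged 863 TPM in liver and 37.2 TPM in lung.

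The 2 outer membrane transferases of the carnitine shuttle had opposite orders between heart and liver. Cpt1b, the muscle form, averaged 240 TPM in heart, 14.0 in kidney, 5.23 in liver and 4.46 in lung of the Dchs1 line. Cpt1a, the liver form, averaged 254, 157, 83.0 and 17.7 TPM in liver, kidney, lung and heart, so that heart libraries lay wholly below the rest. The inner transferase Cpt2 (17.8 to 137 TPM), the carrier Slc25a20 (45.1 to 155 TPM) and the acetyl transferase Crat (20.04 to 143 TPM) were all lowest in lung.

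In the mitochondrial core, Hadha and Hadhb encode the alpha and beta subunits of the trifunctional protein, which catalyses the last 3 steps on long chains. Hadhb averaged 927 ± 48.6 TPM in heart, 296 in liver, 136 in kidney and 99.1 in lung, and Hadha 579, 320, 118 and 109 TPM in the same order. The dehydrogenases Acadvl, Acadl and Acadm, for very long, long and medium chains, were highest in heart of the Dchs1 line at 409, 550.0 and 534 TPM and lowest in lung at 82.0, 149 and 77.1 TPM. In the Fat4 line Acadm was highest in kidney, at 572 TPM against 555.5 TPM in heart, and these overlapped. Hadh, for shorter hydroxyacyl chains, averaged from 321 TPM in kidney to 102 TPM in lung, and each neighbouring pair of tissues overlapped. The last thiolase, Acaa2, averaged 709 TPM in liver and 157 TPM in lung.

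Of the 7 peroxisomal enzymes and thioesterases, Ehhadh, Acaa1b, Acot1, Acot3 and Acot4 had their 2 highest means in liver and kidney. Ehhadh, the peroxisomal bifunctional enzyme, averaged 768 TPM in liver and 739 TPM in kidney, against 11.4 in heart and 7.10 in lung. The thiolase Acaa1b averaged 949 and 288 TPM in liver and kidney and 0.691 TPM in heart, whereas its near copy Acaa1a ran from 24.7 to 152 TPM, and reads of such copies can be divided wrongly between them. Among the thioesterases, which release free fatty acids from coenzyme A, Acot3 and Acot4 averaged 10.05 to 23.9 TPM in liver and kidney and at most 0.597 TPM in heart and lung. Acot1 ranged from 50.6 TPM in heart to 191 TPM in kidney, and Acot2 from 26.1 TPM in lung to 96.7 TPM in heart. Bdh1, which interconverts the main ketone bodies, ranged from 94.6 TPM in liver to 2.18 TPM in lung.

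Pdk4, a kinase that shuts off pyruvate oxidation, averaged 1337 ± 395 TPM in heart, 125 in kidney, 36.5 in lung and 13.4 in liver. Of the uncoupling proteins, Ucp3 was a heart gene at 48.7 TPM and Ucp2 a lung gene at 619 TPM. Fgf21, a liver hormone of fasting, averaged 17.8 ± 18.4 TPM in liver and at most 0.234 TPM elsewhere. The lipoprotein lipase inhibitor Angptl4 (42.1 to 141 TPM) overlapped between each neighbouring pair of tissues in the Dchs1 line, and the pantetheinase Vnn1 was highest in kidney at 136 TPM and liver at 100.5 TPM.

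Wild-type libraries of a tissue varied far more in some members than in others. Pdk4 was among the most variable genes in each WT group, at percentiles of 94.6 to 99.8 of all genes by the SD of log2(CPM + 1). Acot1 stood at percentiles of 99.4 and 99.1 in kidney of the Dchs1 and Fat4 lines, and Ehhadh at 98.4 and 98.3 there and at 98.9 and 98.7 in liver. Acadl stood between percentiles of 0.674 and 15.8, and Hadhb in heart at 1.85 and 1.32.

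Pairs of members with a shared locus, a shared family or different roles were followed across the WT libraries of each group, 58 correlations in all on log2(CPM + 1). Of these, 47 had an adjusted p under 0.05 (two-sided permutation test with 100000 permutations, Benjamini-Hochberg over the 58). Pairs of other genes were not tested, so how often genes in general correlate in these libraries is not known. Acot1 and Acot2, which lie on chromosome 12 (84009502 to 84017670 and 83987861 to 83993877) with Acot3 and Acot4 beside them, correlated in every group, from r = 0.79 (rho = 0.79) in Dchs1 heart to 0.95 in Dchs1 kidney and liver, with an adjusted permutation p of 2.15e-05 in each, the smallest that the permutations can give. The 4 thioesterase genes are close copies whose reads can be divided wrongly between them, and what this adds to their correlation was not tested. Ehhadh and Acot1, on different chromosomes, correlated at 0.91 (rho = 0.93) in Dchs1 kidney, 0.95 (rho = 0.95) in Fat4 kidney and 0.91 and 0.85 in the livers (each adjusted permutation p = 2.15e-05), and without the 2 libraries farthest from the median r was 0.78 to 0.94. In heart the same pair gave r = 0.16 (rho = 0.22) in the Dchs1 line and -0.48 (rho = -0.52) in the Fat4 line (adjusted permutation p = 0.401 and 0.01). In lung it gave r = 0.32 (rho = 0.40) in the Dchs1 line, where the longest stretch gave 0.76, and 0.57 (rho = 0.56) in the Fat4 line (adjusted permutation p = 0.102 and 0.00158). Without the 2 farthest libraries these were 0.26 and 0.49. Pdk4 and Angptl4 gave r = 0.83 (rho = 0.80) in Dchs1 kidney (adjusted permutation p = 2.15e-05). In Dchs1 liver the pair gave r = 0.65 (rho = 0.21, adjusted permutation p = 0.00328), and the relation rested on 2 libraries, since r was -0.05 without them.

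**Figure D2:**
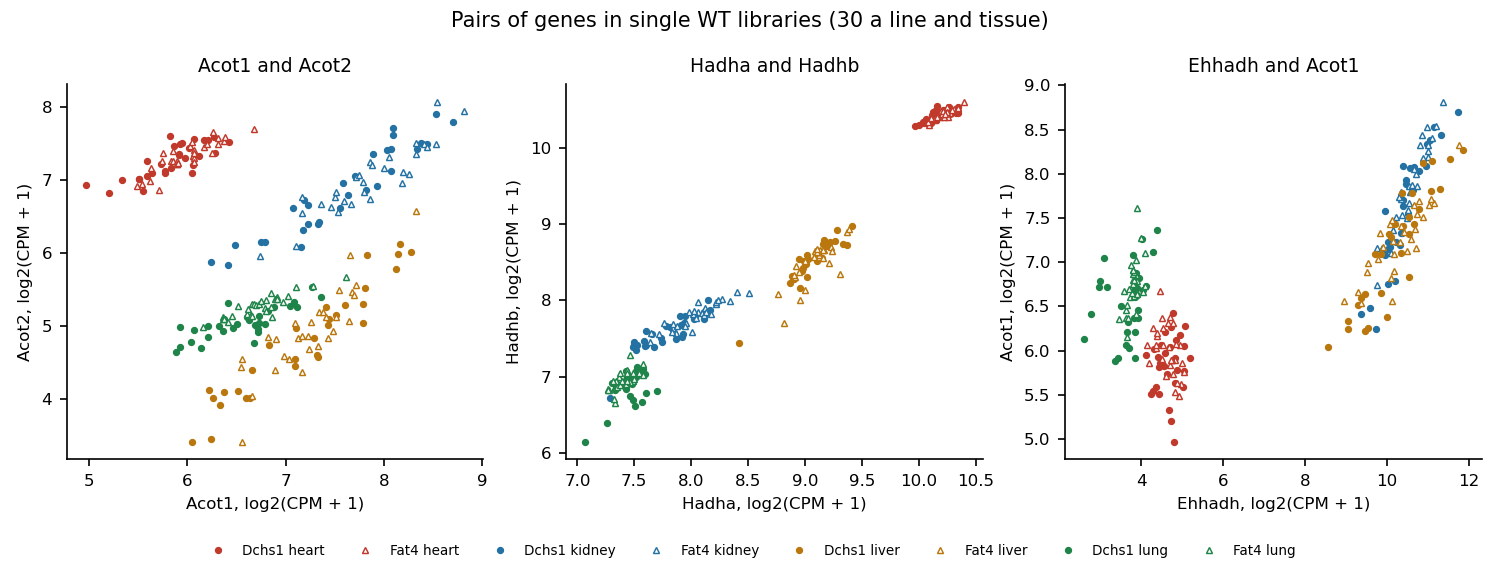
Log2(CPM + 1) of 3 pairs of members in wild-type libraries, each point a library, by line and tissue. Acot1 rises with Acot2 in each tissue, and Hadha with Hadhb, though loosely over all Dchs1 lung libraries (r = 0.53). Without 2 of those libraries r is 0.32, and in their longest stretch 0.85. Ehhadh and Acot1 lie along a line in kidney and liver, more loosely in lung (r of 0.32 and 0.57) and with r of 0.16 and -0.48 in heart.

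Hadha and Hadhb lie head to head on chromosome 5 (30119423 to 30154980 and 30155253 to 30184593), with 272 bases between their start sites. Their correlation among WT libraries was 0.53 (rho = 0.31) in Dchs1 lung and 0.66 to 0.94 in the other 7 groups. In Dchs1 lung it was 0.32 without 2 libraries, 0.85 in the longest stretch of 24 libraries and 0.68 on log2(TPM + 1). Because both genes were called in the same direction in heterozygotes in Dchs1 kidney, liver and heart, their shared promoter bases are shown. In Dchs1 lung only Hadhb was called, and in the Fat4 line neither. The 228 bases lie between the genes in the RefSeq promoter windows of both. They are given without the bases next to each start site, read on the strand of Hadhb at chr5:30155003-30155230 (GRCm38.p6). Their GC content is 57%, and no base is capitalised because the repeat described next was not found in the window of either gene.
Hadha-Hadhb: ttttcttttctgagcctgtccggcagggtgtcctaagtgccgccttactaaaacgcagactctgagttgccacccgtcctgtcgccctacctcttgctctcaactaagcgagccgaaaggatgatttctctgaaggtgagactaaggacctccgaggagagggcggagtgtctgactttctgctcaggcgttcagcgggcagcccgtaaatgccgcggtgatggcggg

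PPAR alpha and its partner receptor bind a direct repeat of 6 bases with 1 base between the copies. The repeat AGGNCA, any base, AGGNCA was searched on both strands of the 300 bases from 250 before to 50 after each start site, in the RefSeq table of GRCm38.p6, which holds 28 of the 34 members. Only Fabp1 held it, 1 of 28 (3.6%), against 122 of 27025 genes (0.45%). Its promoter is shown up to the start site (chr6:71199629-71199878, strand of the gene) with the 13 bases of the repeat, which reads on the opposite strand from -67 to -55, in capitals.
Fabp1: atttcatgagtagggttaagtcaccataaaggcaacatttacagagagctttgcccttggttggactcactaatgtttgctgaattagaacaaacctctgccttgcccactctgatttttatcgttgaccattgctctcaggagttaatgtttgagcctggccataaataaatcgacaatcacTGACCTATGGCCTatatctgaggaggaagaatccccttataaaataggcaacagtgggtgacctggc
A looser search, chosen after the data were seen, allowed 2 mismatches to AGGTCA, any base, AGGTCA and found 5 of 28 members (17.9%) against 1190 of 27025 genes (4.4%). The 5 are shown on the strand of the repeat, with matching bases in capitals.
Fabp1: AGGcCAtAGGTCA
Cd36: AaGTCAgAGGcCA
Ucp3: AGGTttcAGGTCA
Slc25a20: AGGTgAaAGGTCg
Acot4: cGGcCAaAGGTCA
They lie on chromosome 6 (71199812 to 71199824), 5 (17835947 to 17835959), 7 (100472940 to 100472952), 9 (108662142 to 108662154) and 12 (84038366 to 84038378). A match is a description of letters in this window, and binding was not measured here.

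Heterozygotes of the Dchs1 line showed the widest change of the module in kidney, where 25 of the 33 members tested rose and 3 fell. All genes tested rose in 23.4% and fell in 23.8% of cases, and the median log2 fold change (Het minus WT) was 0.37 over the members against 0.01 over all genes. By role, all 4 thioesterases, all 4 auxiliary enzymes, 4 of 5 shuttle genes, 5 of 7 core genes and both tested cell surface or secreted targets rose. The 3 that fell were Bdh1, Hadh and Cd36. Ppara was not called, with 191 ± 22.7 CPM in WT and 179 ± 25.3 CPM in Het (-0.09 ± 0.0479, SE, edgeR adjusted p = 0.108).

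**Figure D3:**
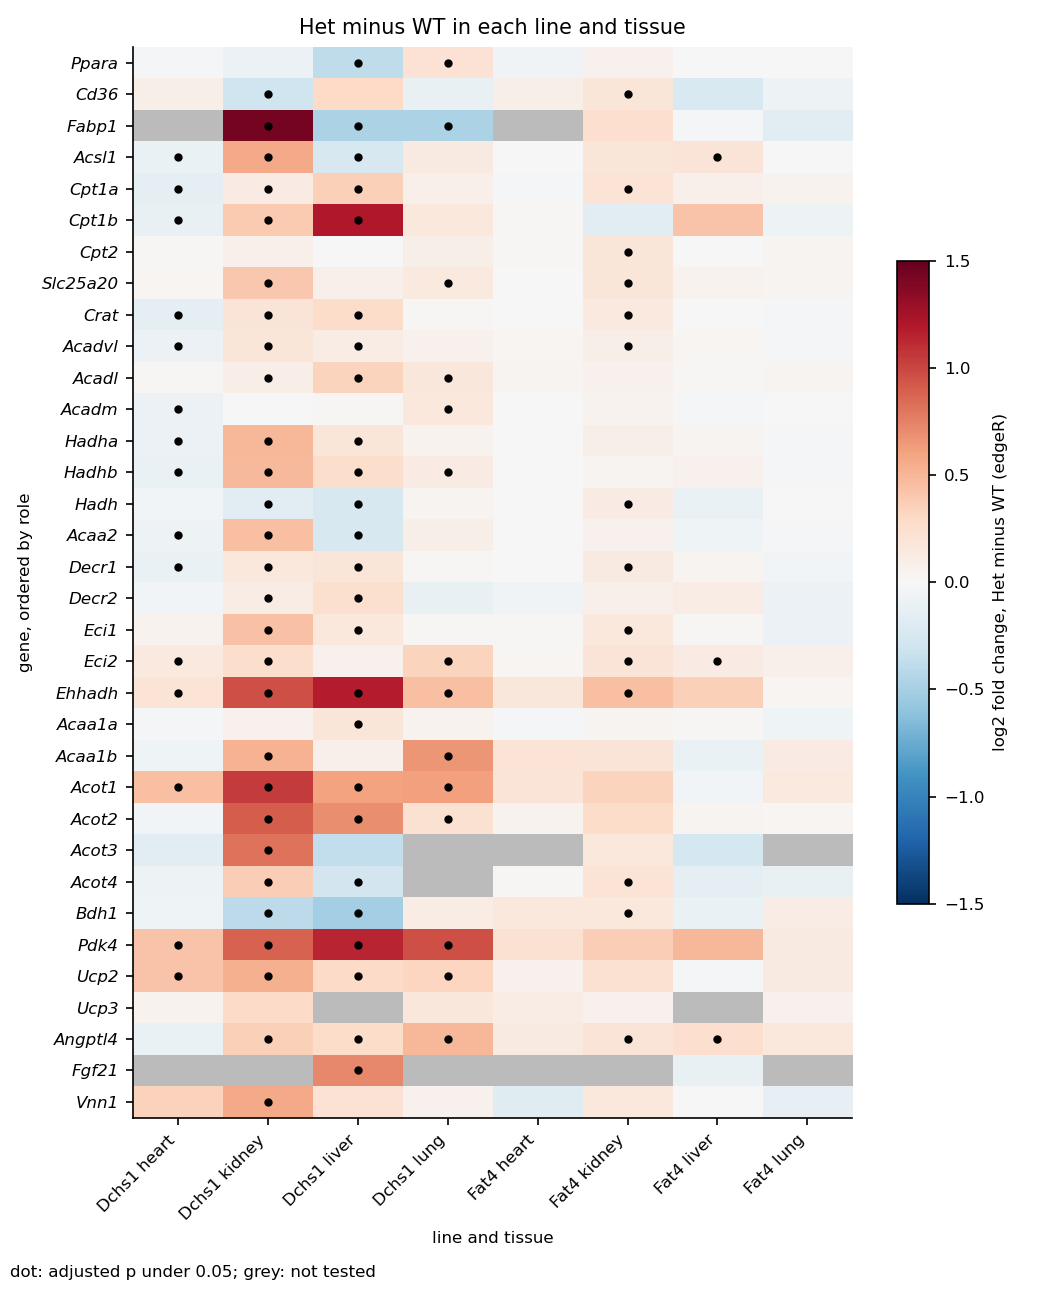
Log2 fold change (Het minus WT) of the 34 members in the 8 comparisons of line and tissue, as colour, with genes grouped by role; a dot marks an edgeR adjusted p under 0.05 and grey a gene not tested. Most of the called rises lie in Dchs1 kidney (25 members), Dchs1 liver (18), Fat4 kidney (14) and Dchs1 lung (13), and Fat4 heart and Fat4 lung have 0.

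The trifunctional pair gave the smallest p in Dchs1 kidney. Hadhb (identifier 231086) had 145, 195 and 270.1 CPM as the lowest, median and highest of 30 WT libraries, and 233, 271 and 319 CPM in Het. Every Het library lay above the WT median and 16 above the highest WT library. Hadhb rose by 0.49 ± 0.0389 on the log2 scale (edgeR adjusted p = 4.14e-16, means 195 ± 24.2 and 274 ± 22.4 CPM). Hadha (identifier 97212) averaged 227 ± 31.5 CPM in WT and 321 ± 27.2 CPM in Het and rose by 0.50 ± 0.0426 (edgeR adjusted p = 5.26e-15), with 22 of 30 Het libraries above the highest WT library.

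Ehhadh (identifier 74147, chromosome 16, 21761285 to 21787834) spread over 654, 1341 and 3580 CPM in WT and 2173, 2846 and 3905 CPM in Het. The lowest Het library lay above the WT median, and 3 lay above the highest WT library. It rose by 0.97 ± 0.0995 (edgeR adjusted p = 2.88e-12). Acot1 (identifier 26897) had 75.5, 194 and 436 CPM in WT and 347, 439 and 513 CPM in Het. All 30 Het libraries lay above the WT median, 16 of them above every WT library, and the change was 1.05 ± 0.112 (edgeR adjusted p = 8.4e-12). The SD of Acot1 was 43.4 CPM among Het and 87.7 CPM among WT libraries.

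The other thioesterases followed. Acot2 rose from 127 ± 51.4 to 240 ± 23.7 CPM (0.91 ± 0.107), Acot3 from 18.5 ± 5.07 to 32.5 ± 8.71 CPM (0.81 ± 0.101) and Acot4 from 35.8 to 46.2 CPM (0.37 ± 0.0619), with edgeR adjusted p of 1.63e-10, 8.12e-10 and 1.29e-06. Slc25a20 rose from 79.2 ± 12.5 to 104 ± 8.40 CPM (0.40 ± 0.0461, edgeR adjusted p = 1.1e-10) and Vnn1 from 224 ± 52.5 to 333 ± 48.5 CPM (0.57 ± 0.0703, edgeR adjusted p = 7.11e-10). In each of these 5 genes except Acot4 (26 of 30) every Het library lay above the WT median.

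Fabp1, at low levels in kidney, gave the largest rise. Its WT libraries had 0.376, 1.90 and 6.03 CPM and its Het libraries 1.97, 4.71 and 12.9 CPM. The lowest Het library was above the WT median of 1.90 CPM, 10 lay above every WT library, and the change was 1.44 ± 0.199 (edgeR adjusted p = 1.74e-08). Further rises were 0.57 for Acsl1, 0.53 for Acaa1b and Ucp2, 0.45 for Acaa2, 0.44 for Eci1, 0.39 for Cpt1b and 0.88 for Pdk4, all with 30 of 30 Het libraries above the WT median. The dehydrogenases moved little, with Acadvl at 0.18 and Acadl at 0.10 called and Acadm at 0.004 not.

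Bdh1 (identifier 71911) gave the largest fall, from 103 ± 16.5 to 78.5 ± 13.9 CPM, by 0.39 ± 0.0619 on the log2 scale with 28 of 30 Het values under the WT median (edgeR adjusted p = 4.56e-07). Hadh fell by 0.16 ± 0.0305 (409 to 367 CPM, 30 of 30 below, edgeR adjusted p = 1.89e-05) and Cd36 by 0.30 ± 0.0836 (484 to 392.3 CPM, 24 of 30 below, edgeR adjusted p = 0.00212). On the TPM scale with limma 27 members rose and only Bdh1 fell, Hadh at -0.07 and Cd36 at -0.21 not passing. Over all genes 78.5% of limma's calls were rises against 49.5% of edgeR's. In the longest stretch, of 23 WT and 25 Het libraries, 24 members rose and 3 fell.

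Some cell type markers also differed between Het and WT in Dchs1 kidney. Of 8 proximal tubule markers 6 fell, and their summed level was 29910 to 58740 TPM (median 49350) in WT and 19780 to 42400 TPM (median 29810) in Het, most of it Kap at a mean of 44390 TPM in WT. The falls were led by Miox (-0.59 ± 0.044), Slc7a13 (-1.33 ± 0.12) and Kap (-0.75 ± 0.0685). Adipocyte markers rose in 3 of 7 cases with a summed level of 155 to 880 TPM in WT and 187 to 960 TPM in Het, and brown fat markers fell in 3 of 5. Of 7 hepatocyte markers 4 rose and 2 fell, among them Fgb at 2.45 and Ttr at -1.27, with none of the 8 listed at 0. Of 6 leukocyte markers tested 4 fell and 0 rose (Cd4 -0.58, Cd79a -0.62), where 23.8% of all genes fell, with a summed level of 15.8 to 39.9 TPM in WT and 15.4 to 38.5 TPM in Het. Of 6 erythroid markers 2 fell, with a summed level of 2037 to 5798 TPM in WT and 1529 to 4886 TPM in Het. The part of these markers in the members' values was not tested, and in bulk tissue fewer cells of a type cannot be told apart from less RNA per cell.

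Other genes of the pathway in Dchs1 kidney came from lists drawn up by function. Of 20 other PPAR alpha targets 15 rose and 2 fell, among them the fatty acid hydroxylases Cyp4a14 (767 to 3043 CPM, 1.99 ± 0.229) and Cyp4a10 (908 to 2057 CPM, 1.18 ± 0.113) above and the aldehyde dehydrogenase Aldh3a2 (-0.54 ± 0.0487) below. Of 15 other peroxisomal genes 10 rose and 1 fell, with the peroxisome division factor Pex11a at 0.54 ± 0.0667 and the reductase Pecr at -0.77 ± 0.0599. The 18 genes listed as other mitochondrial and ketone genes numbered 4 rising and 8 falling, with Acot13 at -0.50 and the short-chain dehydrogenase Acads at -0.36. Nudt19, in the same list though its place in the mitochondrion was not checked, stood at -0.98. Uptake genes split, 4 rising and 5 falling of 14 (the transporter Slc27a1 0.67, the medium-chain ligases Acsm1 -0.77 and Acsm3 -0.71). Of 15 partners and coregulators 6 rose and 2 fell, with Rxra, the receptor partner, at 0.22 ± 0.0558 and Esrra at -0.19 ± 0.0377. Lipid synthesis genes of the fed state rose in 3 and fell in 1 of 12 cases, and fasting glucose genes rose in 2 and fell in 2 of 8.

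**Figure D4:**
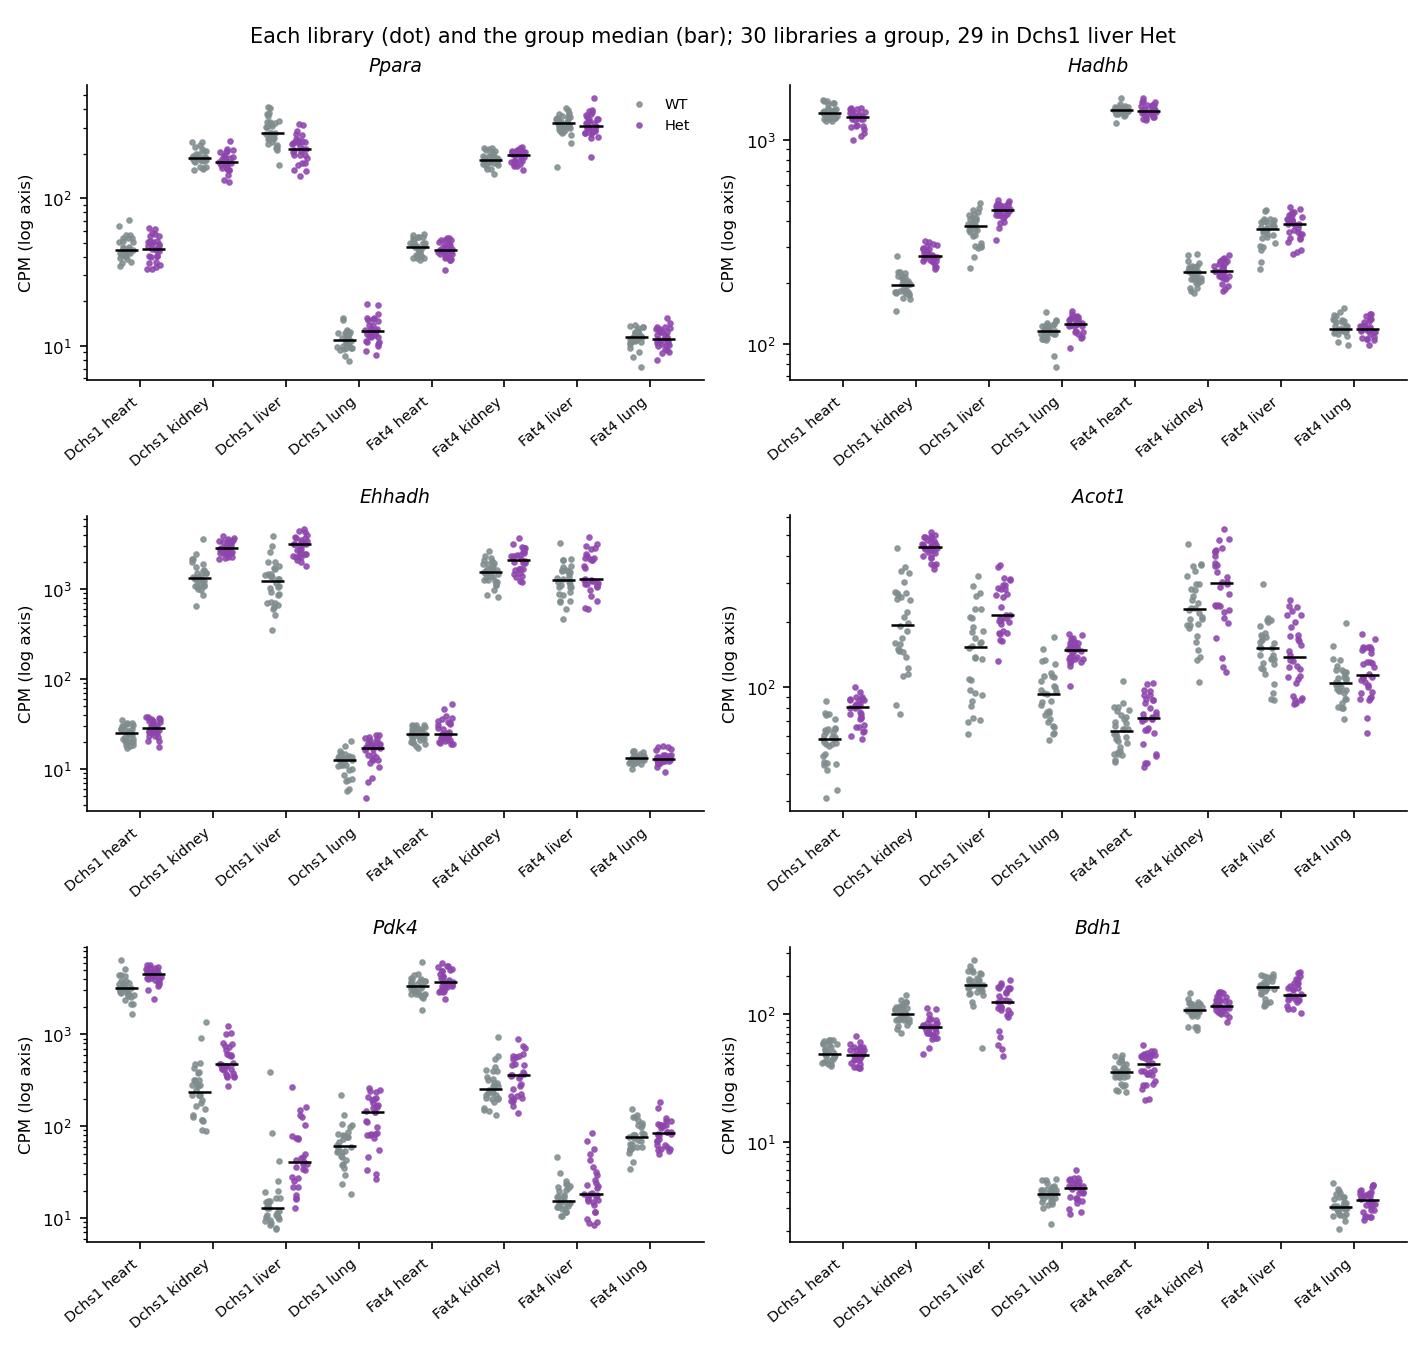
CPM of Ppara, Hadhb, Ehhadh, Acot1, Pdk4 and Bdh1 in each library of the 8 comparisons on a log axis, WT beside Het. In Dchs1 kidney the Het libraries of Hadhb, Ehhadh and Acot1 all lie above the WT median, and those of Bdh1 mostly below it (28 of 30).

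In liver of Dchs1 heterozygotes 18 of 33 members rose and 7 fell, where 24.3% and 25.4% of all genes did. The median log2 fold change was 0.18 over the members and -0.004 over all genes. Rises were called for 3 of 5 shuttle genes, 3 of 4 auxiliary enzymes, 2 of 3 peroxisomal enzymes, 2 of 3 secreted or cell surface targets, and Pdk4 and Ucp2. The core had 4 rises and 2 falls among 7 genes, and the thioesterases 2 rises and 1 fall among 4. The regulator Ppara itself fell, as did 2 of 3 uptake genes and Bdh1.

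Acadl gave the smallest p, with 200, 241 and 317 CPM as the lowest, median and highest WT library and 269.8, 306 and 414 CPM in Het. All 29 Het libraries lay above the WT median, 7 above every WT library, and Acadl rose by 0.34 ± 0.0426 (edgeR adjusted p = 1.48e-09). Ehhadh had 355, 1219 and 3918 CPM in WT and 1795, 3144 and 4672 CPM in Het. Again the whole Het group exceeded the WT median, the highest WT library exceeding 25 of the 29, and Ehhadh rose by 1.18 ± 0.157 (edgeR adjusted p = 6.53e-09). Cpt1a, the entry step of the shuttle, rose from 679 ± 109 to 868 ± 70.1 CPM (0.36 ± 0.0485, edgeR adjusted p = 1.31e-08, 29 of 29).

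Cpt1b, barely present in liver, gave the largest rise. Its WT libraries had 1.16, 7.14 and 40.02 CPM and its Het libraries 7.86, 19.0 and 45.2 CPM. Although 29 of 29 Het libraries lay above the WT median, only 3 exceeded the highest WT library, and the change was 1.201 ± 0.216 (edgeR adjusted p = 5.09e-06). Decr2, which reduces unsaturated chains in peroxisomes, rose by 0.24 ± 0.0398 (232 to 274 CPM, edgeR adjusted p = 9.59e-07) and Hadhb by 0.27 ± 0.0527 (371 to 447 CPM, edgeR adjusted p = 2.43e-05). Pdk4 had 7.66, 12.9 and 385 CPM in WT and 12.8, 41.0 and 266 CPM in Het (1.15 ± 0.359, edgeR adjusted p = 0.00629), and Fgf21 2.52, 5.85 and 49.0 CPM in WT and 5.87, 15.0 and 59.97 CPM in Het (0.72 ± 0.257, edgeR adjusted p = 0.0171). The groups overlapped, with 0 Het libraries above the highest WT library for Pdk4 and 1 for Fgf21.

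Ppara in the same livers had 169, 277 and 415 CPM in WT and 141, 215 and 316 CPM in Het. The groups overlapped, with 26 of 29 Het values under the WT median. It fell by 0.38 ± 0.0765 (edgeR adjusted p = 3.22e-05). Acaa2, the last thiolase of the mitochondrial core, fell by 0.24 ± 0.0496 (edgeR adjusted p = 4.88e-05), and Bdh1 by 0.51 ± 0.112 from 173 ± 40.4 to 122 ± 38.1 CPM, the largest fall (edgeR adjusted p = 0.00014, 26 of 29). Fabp1 fell by 0.47 (2576 to 1859 CPM), Acsl1 by 0.24, Hadh by 0.24 and Acot4 by 0.27. Without the 2 libraries that stood apart the counts were again 18 and 7, and in the longest stretch (23 and 24 libraries) 17 and 8.

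Of the other lists in Dchs1 liver, 9 of 19 PPAR alpha targets rose and 2 fell, with the hydroxylases Cyp4a31 at 1.12, Cyp4a32 at 0.95 and Cyp4a10 at 0.94. Lipid synthesis genes of the fed state fell in 6 and rose in 1 of 12 cases, among them Scd1 (1938 to 697 CPM, -1.48 ± 0.159), Srebf1 (-1.12 ± 0.127) and Mlxipl (-0.87 ± 0.0927). Fasting glucose genes rose in 7 of 10 cases and fell in 0, with Igfbp1 at 2.19 ± 0.404, Got1 at 1.15 and Gpt2 at 0.56. The coactivator Ppargc1a rose by 1.15 ± 0.268 and Rxra fell by 0.27 ± 0.0403, within a list of 16 partners of which 3 rose and 2 fell. Of 18 other mitochondrial and ketone genes 7 rose and 3 fell, of 15 peroxisomal genes 3 rose and 5 fell (Pecr -0.66, Nudt7 -1.14), and of 13 uptake genes 5 rose and 3 fell. Hepatocyte markers rose in 4 and fell in 4 of 8 cases with a summed level of 69490 to 110200 TPM in WT and 74750 to 120400 TPM in Het. The 2 adipocyte markers tested rose (Fabp4 1.11, Plin4 0.83), with 3 of the 8 listed at 0 in all libraries of each genotype and a summed level of 17.1 to 56.2 TPM in WT and 25.1 to 104 TPM in Het. Of 5 leukocyte markers tested 2 fell, and of 5 erythroid markers 1. Their part in the result was not tested.

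In lung of Dchs1 heterozygotes 13 of 31 members rose and 1 fell, where 9.60% and 10.4% of all genes did, with medians of 0.12 and 0.01. Acot1 gave the smallest p, with 57.6, 93.3 and 169 CPM as the lowest, median and highest WT library, and a median of 148 and a highest of 176 CPM in Het. All 30 Het libraries lay above the WT median but only 2 above the highest WT library, and it rose by 0.62 ± 0.079 (edgeR adjusted p = 3.31e-08). Angptl4 rose by 0.50 ± 0.0803 (146 to 207 CPM, edgeR adjusted p = 3.02e-06) and Acaa1b by 0.66 ± 0.111 (20.2 to 31.8 CPM, edgeR adjusted p = 8.54e-06, 30 of 30). Pdk4 gave the largest rise, 0.97 ± 0.2, with 18.3, 61.0 and 218 CPM in WT and 26.4, 142 and 258 CPM in Het (25 of 30 above the WT median, edgeR adjusted p = 0.000214).

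Smaller rises in lung were those of Acadm (0.16 ± 0.0294), Eci2 (0.33 ± 0.0608), Acadl (0.17 ± 0.0348) and Acot2 (0.23 ± 0.049), each in 29 or 30 of 30 libraries, and of Ucp2, Ehhadh, Slc25a20 and Hadhb. Ppara averaged 11.1 CPM in WT and 12.9 CPM in Het and rose by 0.22 ± 0.0641 (edgeR adjusted p = 0.00867, 23 of 30). Fabp1, at 18.4 CPM in WT and 13.2 CPM in Het, was the only member that fell with edgeR (-0.47 ± 0.15, adjusted p = 0.017, 25 of 30). The count of rises depended on the fit: 8 with limma on TPM, 21 with surrogate variables, 12 without the 9 libraries that stood apart and 14 in the longest stretch, with 2, 3, 1 and 3 falls. The members' median was 0.07 with limma, 0.08 without those libraries and 0.08 in the longest stretch. Ppara, Slc25a20, Acadm, Hadhb and Ehhadh did not pass with limma. Over all genes 26.1% of limma's calls were rises against 47.9% of edgeR's.

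Leukocyte markers fell in 6 of 8 cases in Dchs1 lung, led by Cd4 (-0.75 ± 0.115), Cd3e (-0.71 ± 0.13) and Ms4a1 (-1.01 ± 0.224), with a summed level of 4986 to 10180 TPM in WT and 4598 to 9539 TPM in Het, most of it Lyz2. Of 7 cardiomyocyte markers 2 fell and 0 rose, with a summed level of 158 to 668 TPM in WT and 152 to 452 TPM in Het. Lung epithelial markers rose in 2 and fell in 1 of 8 cases, and of 3 skeletal muscle markers 1 fell. Over all genes 9.6% rose and 10.4% fell. The part of these markers in the members' values was not tested here. Of 15 other PPAR alpha targets 2 rose and 1 fell. Lipoprotein lipase Lpl rose by 0.75 ± 0.0792 (360 to 605 CPM) among 14 uptake genes of which 4 rose and 2 fell. Of 18 other mitochondrial and ketone genes 6 rose and 0 fell, and of 6 fasting glucose genes 1 rose and 0 fell.

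Of 32 members tested in heart 5 rose and 10 fell in Dchs1 heterozygotes, where 26.1% of all genes rose and 24.1% fell, and the median was -0.04 against 0.004 over all genes. The falls lay in the mitochondrial core (5 of 7), the carnitine shuttle (3 of 5), Acsl1 and Decr1, and were all small. Crat gave the largest, with 270.1, 307 and 354 CPM in WT and 249.8, 279 and 317 CPM in Het. Of its 30 Het libraries 28 lay below the WT median and 9 below every WT library, and it fell by 0.14 ± 0.0249 (edgeR adjusted p = 3.47e-06). Cpt1b fell by 0.11 ± 0.027, Decr1 by 0.10 ± 0.0264 and Acadm by 0.09 ± 0.024 (edgeR adjusted p = 0.000831, 0.00167 and 0.00173), and Cpt1a, Hadhb, Hadha, Acadvl, Acsl1 and Acaa2 by 0.13 to 0.07.

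The heart genes that rose were Acot1, Eci2, Ucp2, Pdk4 and Ehhadh. Acot1 had 31.1, 58.0 and 86.6 CPM in WT and 58.1, 81.0 and 100.7 CPM in Het. No Het library was below the WT median and 9 lay above every WT library, and it rose by 0.46 ± 0.0682 (edgeR adjusted p = 1.08e-07), while its neighbour Acot2 did not pass (-0.04 ± 0.0525). Eci2 rose by 0.15 ± 0.0258 (114 to 126 CPM, 27 of 30, edgeR adjusted p = 2.5e-06) and Ucp2 by 0.43 ± 0.085 (59.0 to 79.3 CPM, 27 of 30, edgeR adjusted p = 2.85e-05). Pdk4 rose by 0.42 ± 0.085, with 1681, 3173 and 6445 CPM in WT and 2400, 4521 and 5731 CPM in Het (28 of 30, edgeR adjusted p = 3.09e-05). Ppara did not pass (-0.01 ± 0.0632, edgeR adjusted p = 0.88). With limma on log2(TPM + 0.1) the falls numbered 6 and the members' median was -0.02, and the longest stretch gave 6 rises and 9 falls.

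Of 8 cardiomyocyte markers 4 fell in the same hearts (Actc1 -0.44, Pln -0.34, Myl2 -0.18) and of 6 erythroid markers 4 fell, and their part was not tested. Among 15 other PPAR alpha targets 6 rose and 5 fell. Of 16 partners 8 rose and 6 fell, with Rxrg at -0.53 ± 0.0586, Esrra at -0.23 ± 0.0265 and Rxra at 0.23 ± 0.0301. Of 18 other mitochondrial and ketone genes 7 rose and 4 fell (Oxct1, which starts ketone use, at -0.24), of 14 peroxisomal genes 4 and 4, and of 13 uptake genes 4 and 2. Lipid synthesis genes fell in 4 and rose in 1 of 12 cases (Srebf1 -0.59). Fasting glucose genes rose in 4 of 6 cases and fell in 0, where 26.1% of all genes rose.

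Across the 4 tissues of the Dchs1 line Ehhadh, Acot1, Pdk4 and Ucp2 rose in every one. Acadl, Hadhb, Eci2, Acot2 and Angptl4 rose in 3. Of the members, 13 were called in both directions in different tissues, 16 only higher and 3 only lower (Cd36, Hadh and Bdh1). Cpt2 and Ucp3 were never called. Recurrence of calls across tissues was not counted over all genes. Whether such recurrence is particular to the members is therefore not known. Ucp2 and Ucp3 lie 5.3 Mb from Dchs1 on chromosome 7, and any part of that neighbourhood in the value of Ucp2 was not tested. A test of the tissue differences themselves (edgeR, 3 interaction terms together) called 28 of 34 members, beside 52.2% of all genes, with Hadha, Hadhb, Fabp1, Acaa2 and Acsl1 at the smallest adjusted p (edgeR, 6.98e-22, 5.23e-18, 7.42e-18, 8.1e-14 and 4.69e-13). Hadhb stood at 0.49 in kidney, 0.27 in liver, 0.12 in lung and -0.10 in heart, and Fabp1 at 1.44 in kidney and -0.47 in both liver and lung.

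In the Fat4 line the module changed mainly in kidney. There 14 of 33 members rose and 0 fell, where 9.21% of all genes rose and 7.87% fell, with a median of 0.16 against -0.001. Of those 14, 4 belonged to the carnitine shuttle (of 5) and 3 to the auxiliary enzymes (of 4), and 1 to the thioesterases (of 4). The largest rise was that of Ehhadh, with 817, 1534 and 2672 CPM in WT and 1191, 2118 and 3714 CPM in Het. The groups overlapped widely, with 24 of 30 Het libraries above the WT median and 6 above every WT library, and it rose by 0.45 ± 0.104 (edgeR adjusted p = 0.00216). Cpt1a had 366, 527 and 633 CPM in WT and 449, 606 and 753 CPM in Het (0.21 ± 0.0449, 26 of 30, edgeR adjusted p = 0.00122).

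The smallest p there were those of Hadh (430 to 467 CPM, 0.12 ± 0.0252, edgeR adjusted p = 0.000851) and Eci2 (130 to 148 CPM, 0.19 ± 0.04, edgeR adjusted p = 0.000888), in 26 and 25 of 30 libraries. Hadh, lower in Dchs1 kidney, was thus higher here. Cpt2 rose by 0.18, Crat by 0.15, Slc25a20 by 0.18 and Acot4 by 0.20, and Decr1, Angptl4, Bdh1, Acadvl, Cd36 and Eci1 by 0.09 to 0.20. Ppara did not pass (0.06 ± 0.0355, edgeR adjusted p = 0.216), nor did Hadhb (0.04 ± 0.0392) and Acot1 (0.33 ± 0.129, edgeR adjusted p = 0.067, 22 of 30). With surrogate variables 6 members rose, Cd36, Cpt2, Slc25a20, Acadvl, Decr1, Acot4, Bdh1 and Angptl4 not passing, and in the longest stretch 17 rose. The members' median was 0.06 with surrogate variables. Over all genes 68.1% of limma's calls on TPM were rises, against 53.9% of edgeR's.

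Other genes of the pathway in Fat4 kidney rose in part as well, and 0 fell: 9 of 20 PPAR alpha targets, 11 of 15 peroxisomal, 8 of 18 mitochondrial and ketone and 4 of 14 uptake genes. They included Pex11a (0.34 ± 0.0713), Gpd1 (0.23 ± 0.0356), Acot12 (0.30), Hsd17b4 (0.20) and Etfdh (0.16). Of 12 lipid synthesis genes 4 rose, of 8 fasting glucose genes 3, and of 15 partners 2, Lpin1 and Rxra. Proximal tubule markers rose in 1 of 8 cases and fell in 0, with summed levels of 33380 to 61400 TPM in WT and 39670 to 66740 TPM in Het, and 2 of 6 erythroid markers fell. Their part was not tested.

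In Fat4 liver 3 of 33 members rose and 0 fell, where 3.64% and 3.51% of all genes did. Acsl1 had 1610, 2226 and 2610 CPM in WT and 1919, 2499 and 3197 CPM in Het, and rose by 0.19 ± 0.0475 (24 of 30, edgeR adjusted p = 0.0066). Eci2 rose by 0.12 ± 0.0362 (215 to 234 CPM, 26 of 30, edgeR adjusted p = 0.0268) and Angptl4 by 0.25 ± 0.0808 (116 to 138 CPM, 24 of 30, edgeR adjusted p = 0.0426). Ppara was at 319 CPM in each genotype (edgeR adjusted p = 0.999). The counts moved with the fit, since limma on TPM called 0 rises and 1 fall, and with the 5 libraries that stood apart left out there were 2 and 2. The members' median was 0.02 with edgeR, -0.05 with limma and -0.04 with surrogate variables, and 50.9% and 13.4% of all calls were rises. Of 19 other PPAR alpha targets 2 rose (Cyp4a32 0.59, Cyp4a31 0.53) and 1 fell (Aldh3a2 -0.22), and of 10 fasting glucose genes 3 rose (Igfbp1 0.92, Tat 0.46, G6pc 0.39). Of 13 other uptake genes 4 rose and 0 fell. Mitochondrial and ketone genes rose in 1 of 18 cases, and peroxisomal genes rose in 1 and fell in 2 of 15. Of 12 lipid synthesis genes 2 rose and 1 fell. Hepatocyte markers rose in 2 of 8 cases and fell in 0, and their part was not tested.

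Fat4 heart and lung gave 0 called members in either direction, of 31 and 32 tested, with edgeR and with DESeq2. In heart 0.969% of all genes rose and 0.628% fell, and in lung 0.110% and 0.0259%. Of 6 fasting glucose genes 2 rose and 0 fell in heart, and in lung 0 of 6 were called. Over all genes 2276 in heart and 1637 in lung had an unadjusted p under 0.05. With limma 87.1% of the calls over all genes in heart and 60% in lung were rises, against 60.7% and 81.0% with edgeR, and with surrogate variables 47.1% and 58.5%. With limma, edgeR and surrogate variables the calls numbered 132, 211 and 155 in heart and only 10, 21 and 41 in lung. The members with the largest rises by value, none of which passed, were Pdk4 in heart (0.23 ± 0.0842, edgeR adjusted p = 0.139) and Angptl4 in lung (0.16 ± 0.0818, edgeR adjusted p = 0.470). Ppara stood at -0.05 ± 0.0445 in heart and 0.003 ± 0.0539 in lung. In simulated counts of these comparisons the test recovered 68.7% of 1.2-fold changes in Fat4 heart and 76% in Fat4 lung. Those counts were drawn independently for each gene and library. Planted changes were 1.2-fold and 1.5-fold, and none was smaller. Variation that genes of a library share was left out, so these shares do not give the power in the real libraries. A test of the tissue differences in the Fat4 line called 5 of 34 members, beside 7.13% of all genes: Hadh, Cd36, Decr2, Cpt2 and Acot4 (edgeR adjusted p = 0.000251, 0.000492, 0.00617, 0.0292 and 0.039).

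The lines share no libraries, and the difference of their Het effects was tested in each tissue. In kidney 18 of 33 members differed, where 33.5% of all genes did. Hadhb changed by 0.49 with Dchs1 and by 0.04 with Fat4, a difference of 0.46 ± 0.0553 (edgeR adjusted p = 2.27e-11), and Hadha by 0.50 and 0.09. Hadh and Bdh1 went opposite ways, -0.16 and 0.12 for Hadh and -0.39 and 0.15 for Bdh1 (edgeR adjusted p = 4.86e-09 and 7.01e-08). The fall of Hadh with Dchs1 did not pass with limma, nor the rise of Bdh1 with Fat4 with surrogate variables. The difference between the lines was tested with edgeR alone. Cpt1b stood at 0.39 and -0.16 (edgeR adjusted p = 5.95e-07). Ehhadh, called higher in each line, differed by 0.53 ± 0.146 (edgeR adjusted p = 0.00279) and Acot1 by 0.73 ± 0.174 (edgeR adjusted p = 0.00049).

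**Figure D5:**
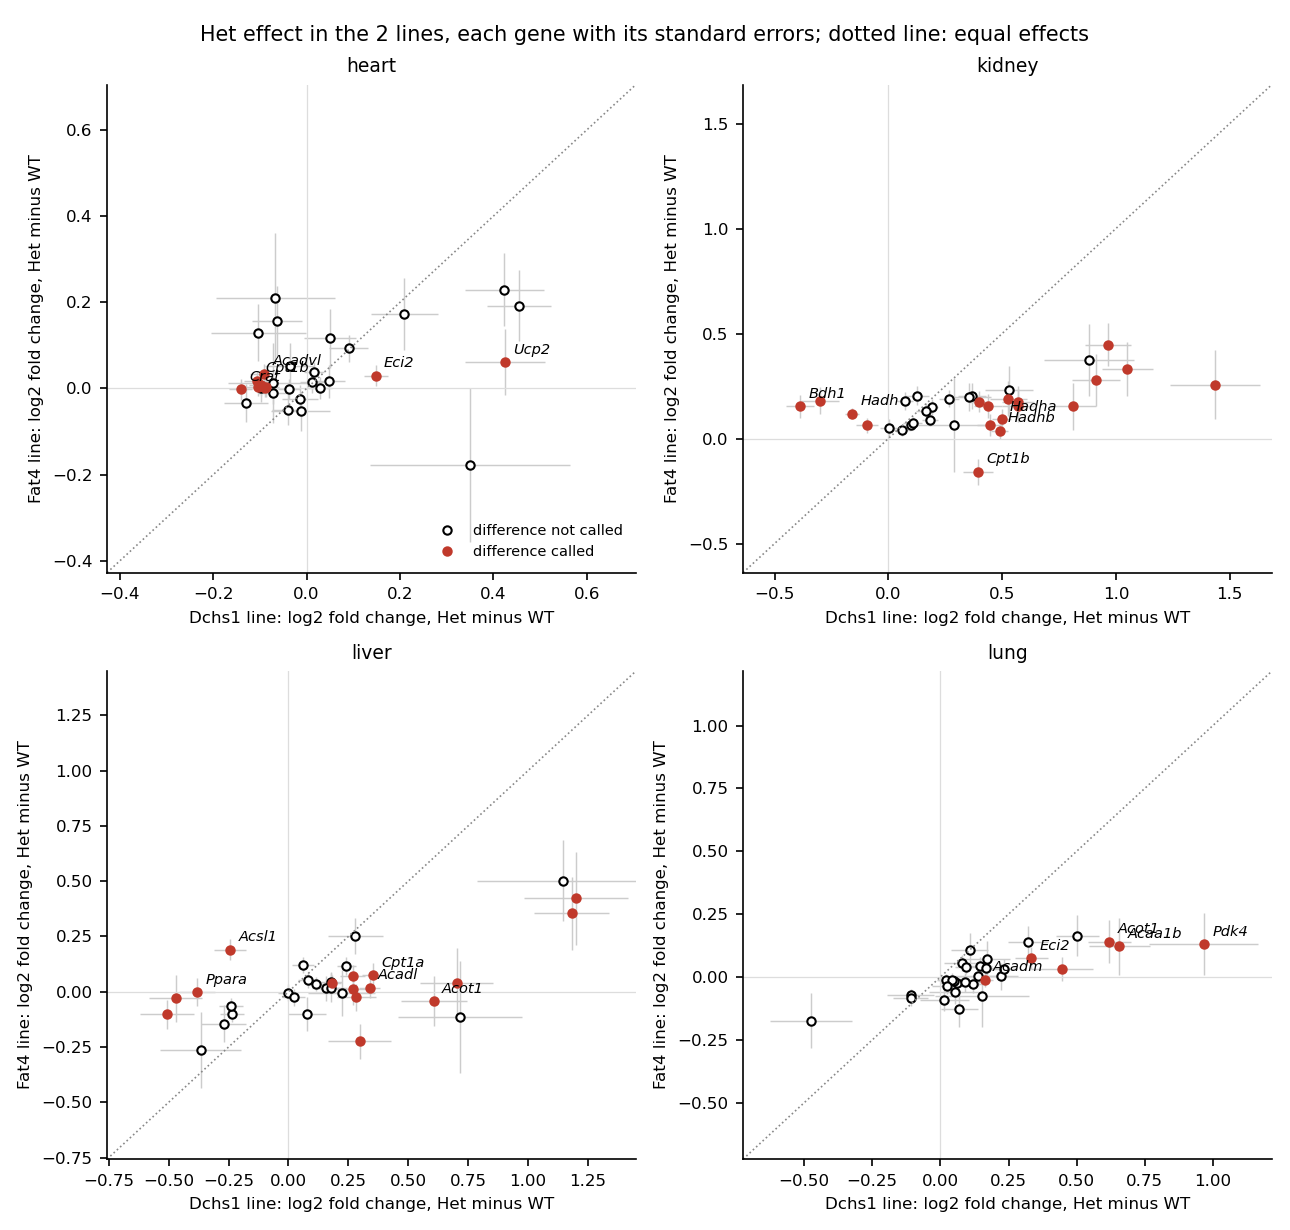
Log2 fold change (Het minus WT) of each member in the Dchs1 line against the Fat4 line, by tissue, with the standard error as bars. In kidney Hadhb and Hadha lie at about 0.5 in the Dchs1 line and near 0 in the Fat4 line, and Bdh1 and Hadh lie below 0 in the Dchs1 line and above 0 in the Fat4 line.

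In liver 15 of 33 members differed, beside 23.6% of all genes. Acadl (0.34 and 0.02, edgeR adjusted p = 2.71e-05) and Cpt1a (0.36 and 0.07) passed in the Dchs1 line and not in the Fat4 line, Acsl1 fell in it and rose in the Fat4 line (-0.24 and 0.19, edgeR adjusted p = 4.1e-05), and Ppara differed by -0.37 ± 0.0988 (edgeR adjusted p = 0.0033). In heart 9 of 32 differed, beside 25.5% of all genes, led by Crat (-0.15 ± 0.0351, edgeR adjusted p = 0.000856). In lung 6 of 32 differed, beside 5.0% of all genes, led by Acot1 (0.47 ± 0.116, edgeR adjusted p = 0.00616), and in the longest stretch 10 did.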

How the data were processed

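The deposited tables hold, per gene and library, the authors' estimated counts and their TPM values, both per the file headers. Of the deposited counts 15.17% in the Dchs1 and 15.33% in the Fat4 table were not whole within 0.001, and all were rounded. Per the submitters' processing notes, bcl2fastq 2.17, FastQC and GRCm38 were used; for the aligner and counter: not given in the sources used here. Of 24475 identifiers 24375 matched RefSeq GRCm38.p6.

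Het and WT libraries of each line and tissue were compared with the quasi-likelihood test of edgeR 4.0.16 (R 4.3.3), with TMM scaling, genes of a count of 10 in enough libraries and a total of 15, Benjamini-Hochberg adjustment over all genes tested and a threshold of 0.05. The standard error is the log2 fold change divided by the root of F. Interaction terms tested differences between lines and tissues. Libraries of 1 mouse could not be told from the labels, so the tissue tests treated all libraries as independent. CPM are counts scaled to TMM-corrected library totals within a comparison; correlations used plain totals (scipy 1.17.1, numpy 2.4.6, pandas 2.3.3, Python 3.11.15). Alternatives were DESeq2 1.42.0, its size factors, no filter, limma 3.58.1 on log2(TPM + 1) and log2(TPM + 0.1) for genes of at least 1 TPM in 20 libraries, number stretches as covariate or the longest alone, outlying libraries left out (median correlation over 5 median absolute deviations low) and up to 5 surrogate variables (sva 3.50.0). Libraries held 10720364 gene-assigned reads or more; counting error is relatively largest for members of a few CPM and was not separated from the spread between libraries. The test was tried on simulated counts.

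The members and the other gene lists, which share some genes, were chosen with earlier results of these data known. Named were, per comparison, up to 8 called members of smallest p, the largest rise and fall and Ppara, up to 3 called genes of each other list, and up to 5 members per interaction. Members named beyond that rule were chosen after their values were seen. Some genes of the other lists are counted but not reported here by name.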

Additional observations from a re-analysis of the deposited data

Results flagged for a closer look

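The Het effect differed between the Dchs1 and the Fat4 line by an interaction test for 18 of 33 kidney members (33.5% of all genes), 15 of 33 liver members (23.6%), 9 of 32 heart members (25.5%, near the members' share) and 6 of 32 lung members (5.0%). In heart the log2 fold change of the Dchs1 line minus that of the Fat4 line was -0.146 for Crat, -0.131 for Cpt1b and -0.133 for Acadvl, 0.111 for Eci2 and 0.357 for Ucp2. In kidney it was 0.46 for Hadhb and 0.414 for Hadha, the subunits of the trifunctional protein, 0.56 for Cpt1b, -0.268 for Hadh and -0.531 for the ketone body enzyme Bdh1. In liver it was 0.336 for Acadl, 0.295 for Cpt1a and 0.663 for Acot1, and -0.418 for Acsl1 and -0.366 for Ppara. In lung it was 0.471 for Acot1, 0.164 for Acadm, 0.826 for Pdk4, 0.251 for Eci2 and 0.53 for Acaa1b. By the same kind of test the Het effect differed between the 4 tissues for 28 of the 34 members in the Dchs1 line, beside 52.2% of all genes, and for 5 in the Fat4 line, beside 7.13%.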

How the results depend on the processing

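No member that passed the threshold with edgeR or under an alternative changed sign between them, while some that passed in neither did. Of the values of single members under the alternatives, 2014 kept their side of the threshold, 57 passed it newly and 65 no longer passed. The members' median in Fat4 liver changed sign, from 0.015 to -0.049 with limma and to -0.038 with surrogate variables. With limma on log2(TPM + 1) and on log2(TPM + 0.1), members called lower numbered 1 and 1 in Dchs1 kidney and 2 and 2 in Dchs1 lung, members called higher 8 and 8 in Dchs1 lung and 0 and 0 in Fat4 liver, and 1 and 1 were lower in Fat4 liver. On log2(TPM + 0.1) alone 6 were lower in Dchs1 heart. With surrogate variables 21 were higher and 3 lower in Dchs1 lung, 6 higher in Fat4 kidney and 2 lower in Fat4 liver. With the number stretch as a covariate 3 were lower in Dchs1 lung, 1 higher in Fat4 heart and 2 lower in Fat4 liver. In the longest stretch alone 3 were lower in Dchs1 lung and 2 in Fat4 liver, 10 differed between the lines in lung and 8 between the tissues of the Fat4 line. In Fat4 liver no filter on low counts left 1 higher, DESeq2 called 1 lower, and 2 were lower without outlying libraries. The cause was not tested. The other member counts stayed within 1.5 times. Fat4 lung holds a single number stretch, so the stretch alternatives were not run for that comparison. No paired analysis was possible, because the labels number libraries and not mice. Libraries of 1 mouse could therefore not be matched, and tissues may come from the same mice.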
